A study of Homo sapiens with 6 samples.

Results

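The genes described are 36 aminoacyl-tRNA synthetases and 3 scaffold proteins of the complex that holds some of them together, 39 of the 60668 genes in the table. They were chosen by gene name, as members of 1 family. 18 of the enzymes work in the cytosol, 16 in mitochondria, and 2, GARS1 and KARS1, serve both compartments from the same gene. All 39 had reads and all 39 passed the filter on low values.

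RNA was sequenced from MiaPaCa-2 cells, an established human pancreatic cancer line obtained from ATCC, after 48 h in low glucose (2.5 mM) or in control medium (25 mM), with 3 libraries in each condition. The design text calls them independent biological replicates, and no genotype or drug differs between the conditions. The labels' treatment text gives the low glucose dose for the control samples too, while their titles and the series design give control. Only low glucose replicates 1 and 2 are tied to a column by their labels. The 4 other columns took their condition from the rule that selected the genes, which groups the columns by name, and the numbering of the names follows it. Those libraries are called by their read totals.

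Aminoacyl-tRNA synthetases join each amino acid to its tRNA, so that the ribosome places the right residue at each codon. Most amino acids have separate nuclear genes for the cytosolic and the mitochondrial enzyme, and the mitochondrial enzymes are imported to serve the translation of the respiratory chain subunits that mitochondrial DNA encodes. In the cytosol a subset of the enzymes forms the multi-tRNA synthetase complex around AIMP1, AIMP2 and EEF1E1. When charged tRNA runs short, GCN2 (gene EIF2AK4) phosphorylates eIF2alpha and the transcription factor ATF4 is made, and several cytosolic synthetase genes are known ATF4 targets.

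ATF4 with a C/EBP partner binds the C/EBP-ATF response element, whose core was searched as TGATGNAA on both strands of each promoter, from 250 bases before to 50 bases after the start site. Promoters came from a set built on RefSeq (GRCh38.p14) that held 33 of the 39 members. LARS1, TARS3, VARS1, YARS1, AARS2 and VARS2 had no entry in the set used. The motif was present in 7 of the 33 members (21.2%) and in 1003 of all 27305 promoters (3.67%). The 7 matches are shown as 30-base windows, 5′ to 3′ on the strand of the gene, because the enzymes that carry them differ in how they responded to low glucose. Capitals mark the 8 bases that match the motif, read as TTGCATCA where it lies on the opposite strand.
AARS1: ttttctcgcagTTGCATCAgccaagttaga
CARS1: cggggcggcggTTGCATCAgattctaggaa
MARS1: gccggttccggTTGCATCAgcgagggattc
NARS1: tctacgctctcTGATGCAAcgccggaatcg
IARS1: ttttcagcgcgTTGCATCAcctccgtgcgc
TARS1: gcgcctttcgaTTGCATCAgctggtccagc
YARS2: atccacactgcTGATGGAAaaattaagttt

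The AARS1 window lies at chr16:70289675-70289704 on the minus strand, with the motif centred 183 bases before the RefSeq start (position -183). It falls inside the gene as GENCODE draws it, in an exon of a transcript other than the canonical one. The CARS1 window is at chr11:3057407-3057436 (minus strand) and the MARS1 window at chr12:57488053-57488082 (plus strand), with motif centres 2 and 0 bases from the start. The NARS1 window, at chr18:57621804-57621833 on the minus strand, is centred 18 bases after the start and lies whole in the 5′ untranslated region of the canonical transcript. The IARS1 window is at chr9:92293692-92293721 (minus strand, centre at -9) and the TARS1 window at chr5:33440956-33440985 (plus strand, centre 6 bases after the start). Of the 30 bases, 17 in CARS1, 15 in MARS1, 6 in IARS1 and 21 in TARS1 are 5′ untranslated region of the canonical transcript. The YARS2 window, at chr12:32756076-32756105 on the minus strand, is centred at -193 and lies outside the annotated gene. It is the only window in which the variable base is G and not C.

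In low glucose, cytosolic enzymes passed the test in both directions and mitochondrial enzymes only as lower. Of the 18 cytosolic enzymes, 5 rose (AARS1, SARS1, CARS1, MARS1 and NARS1), 5 fell (HARS1, FARSB, RARS1, FARSA and QARS1) and 8 did not pass the test. Of the 16 mitochondrial enzymes, 6 fell (LARS2, EARS2, MARS2, IARS2, FARS2 and TARS2), none rose, and 10 did not pass. GARS1 rose and KARS1 fell, and the 3 scaffolds did not pass. In all, 18 of 39 members passed, 6 of them higher and 12 lower, by limma on log2(normalised count + 1) with Benjamini-Hochberg adjusted p under 0.05. Among all 21101 genes tested, 30.9% passed by the same rule, 14.7% higher and 16.2% lower. The members are well expressed, and among the 10149 genes whose mean value reached 100 the shares were 48.0%, 18.0% and 30.0%. The members' share is thus close to that of other well expressed genes. The 6 mitochondrial enzymes that fell also fell in edgeR and DESeq2 fits of the recovered reads, where edgeR called 1 mitochondrial enzyme, NARS2, higher. The edgeR fit called 7 members higher and 11 lower, against 42.8% of all genes it tested, and DESeq2 called 31.5% of all genes. The counts in each direction depended on the scaling. After quantile normalisation 8 cytosolic enzymes were higher and 3 lower, and with TPM 3 were higher and 5 lower. At equal library size 2 mitochondrial enzymes were higher and 6 lower, where 3935 of all genes were higher and 2647 lower.

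**Figure D1:**
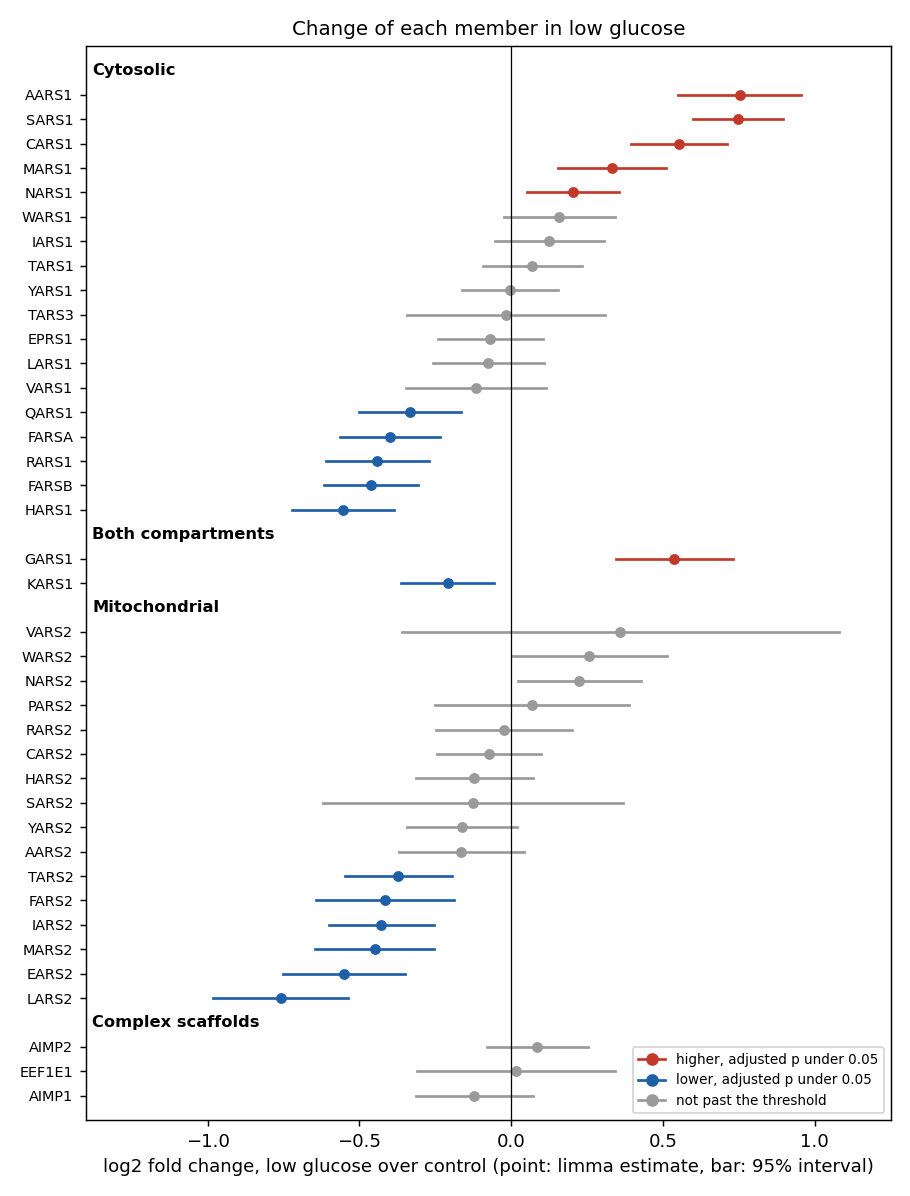
Fitted log2 fold change of low glucose over control for the 39 members, grouped by compartment, with the limma estimate as a point and its 95% interval as a bar (3 libraries per condition). The cytosolic enzymes run from 0.75 for AARS1 to -0.55 for HARS1, and the 6 mitochondrial enzymes past the threshold all lie to the left of 0.

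The median log2 fold change was -0.01 for the cytosolic enzymes (0.15 after quantile normalisation), -0.14 for the mitochondrial enzymes and 0.02 for the scaffolds. The same median was 0.05 over all genes tested and -0.08 over those with a mean of at least 100. The 6 libraries did not overlap between conditions for 10 cytosolic enzymes, 5 higher and 5 lower, and for 10 mitochondrial enzymes, 3 higher and 7 lower. Non-overlap was found for 43.9% of all genes tested and for 60.0% of those with a mean of at least 100. These are levels of bulk RNA scaled to the library, so that fewer cells of a type and less RNA per cell cannot be told apart.

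Depth ran from 9741183 to 10190154 reads in the control libraries and from 10595408 to 13733477 in low glucose. The share of reads from mitochondrially encoded genes was 2.47% to 3.82% for the control libraries against 4.65% to 5.12% for low glucose, and its part in the results was not tested. The control libraries differed more among themselves than the low glucose libraries, by a chi-square that averaged between 4.63 and 18.9 per gene for pairs of control libraries and between 1.90 and 2.89 for pairs of low glucose libraries. The control library of 10126218 reads held the highest mitochondrially encoded share of the 3, and it was the highest control for 15 of the 18 cytosolic enzymes (83.3%) against 37.8% of all genes tested and 44.8% of those with a mean of at least 100. Without it, 7 cytosolic enzymes passed as higher and 5 as lower, and 1 mitochondrial enzyme passed as higher and 7 as lower. Calls also rose over all genes in that fit, to 3510 higher and 3741 lower, against 3111 and 3417 with all libraries. The line's label was checked on markers: KRT8 and KRT18, keratins of simple epithelia, and the mesenchymal filament VIM were abundant, EPCAM had at most 1 read and CDH1 at most 3, and all 5 acinar or islet markers were at 0. The fibroblast markers summed to between 2480 and 2621 reads per control library and between 1951 and 2576 per low glucose library. Nearly all were COL1A2, with 1940 to 2577 reads per library. COL1A1, COL3A1 and PDGFRB had at most 14, 35 and 9 reads, and DCN was at 0. PTPRC and CD3E were at 0 among the 3 immune markers. CDH5, an endothelial cadherin, had 145 to 165 reads per control library but 10 to 16 per low glucose library. The other endothelial marker, PECAM1, had at most 3 reads. KRT8 went from 4332 to 2098 TPM and VIM from 5131 to 6665 TPM. The part of CDH5, KRT8 and VIM in the results was not tested.

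The cytosolic enzymes that rose came first in size with AARS1, which charges alanine. AARS1 had normalised counts of 4468, 5289 and 4027 in the control libraries of 9741183, 10126218 and 10190154 reads, and 7961, 7779 and 7350 in low glucose replicates 1 and 2 and the library of 13733477 reads. All low glucose libraries lay above all control libraries, and the spread was wider in control. The mean went from 4595 ± 640 (SD, n = 3) to 7697 ± 314, 1.68 times the control (log2 fold change 0.75, SE 0.09, limma adjusted p = 3.66e-05).

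SARS1, the serine enzyme, whose charged tRNA also feeds selenocysteine synthesis, stood at 2435, 2383 and 2367 in the control libraries and at 4023, 3961 and 4084 in low glucose. The libraries of each condition were close together and far from those of the other. The fold was again 1.68 (log2 0.75, SE 0.07, limma adjusted p = 2.58e-06). No match to the motif was found in the SARS1 promoter window, which says only that these letters are absent from it.

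CARS1, which charges cysteine, had 1017, 1089 and 1010 in control and 1502, 1539 and 1528 in low glucose, without overlap. Its log2 fold change was 0.55 (SE 0.07, limma adjusted p = 6.11e-05), or 1.47 times the control. CARS1 shares 205 exon bases with the antisense transcript CARS1-AS1, which had a log2 fold change of 0.45. The library kit was strand-specific, but the strand setting of the counting is not given in the sources used here, so a share of reads between such neighbours cannot be told apart.

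MARS1, the methionine enzyme, which charges both initiator and elongator tRNA and belongs to the complex, had 2410, 2790 and 2295 in control and 3241, 3106 and 3068 in low glucose. The conditions did not overlap, and the nearest values were the control library of 10126218 reads and the low glucose library of 13733477 reads. The log2 fold change was 0.33 (SE 0.08, limma adjusted p = 0.0069), and the call was lost without low glucose replicate 1 (limma adjusted p = 0.0556). MARS1 shares 355 exon bases with DDIT3 on the other strand, a stress transcription factor with 97 to 1524 reads and a log2 fold change of 2.84, and the part of DDIT3 reads in the MARS1 count was not tested.

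NARS1, the asparagine enzyme, had 3714, 3839 and 3563 in control and 4220, 4251 and 4330 in low glucose. Its conditions did not overlap, but its change was the smallest of the 5, with a log2 fold change of 0.20 (SE 0.07, limma adjusted p = 0.0417). The call was lost in 5 of the 6 fits that left out 1 library and held only without the control library of 10126218 reads. Over all 6 fits the limma adjusted p ran from 0.00192 to 0.143. Of the 5 cytosolic enzymes that rose, 4 carried the motif shown above (80.0%), namely AARS1, CARS1, MARS1 and NARS1.

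HARS1, which charges histidine, fell most among the cytosolic enzymes. Its normalised counts were 1908, 2181 and 2020 in control and 1388, 1449 and 1320 in low glucose. Every low glucose library lay below every control library. The mean went from 2036 ± 137 to 1386 ± 65 (SD, n = 3), 0.68 times the control (log2 fold change -0.55, SE 0.08, limma adjusted p = 0.000103). HARS1 shares 1090 exon bases with WDR55 on the other strand and 108 with the neighbouring HARS2, its mitochondrial counterpart.

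FARSB and FARSA encode the beta and alpha subunits of the cytosolic phenylalanine enzyme, and both fell. FARSB had 1806, 1786 and 1686 in control and 1270, 1261 and 1299 in low glucose (log2 fold change -0.46, SE 0.07, limma adjusted p = 0.00023). FARSA had 1881, 2088 and 1825 in control and 1435, 1451 and 1499 in low glucose (log2 fold change -0.40, SE 0.08, limma adjusted p = 0.0012). For either subunit the libraries of the conditions were apart. Per transcript length the alpha subunit stood higher in control, with 194 TPM (transcript units scaled to length and library) against 47.3 for the beta subunit. This gap rests on the canonical transcript lengths used, 1811 bases for FARSA and 6761 for FARSB. Their mean normalised counts in control were close, at 1931 and 1759, and which transcripts the cells made was not tested.

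RARS1 and QARS1, the arginine and glutamine enzymes of the complex, fell as well. RARS1 had 2057, 2149 and 1877 in control and 1541, 1413 and 1524 in low glucose (log2 fold change -0.44, SE 0.08, limma adjusted p = 0.000675). QARS1 had 1234, 1335 and 1162 in control and 992, 975 and 988 in low glucose (log2 fold change -0.33, SE 0.08, limma adjusted p = 0.00475). Neither overlapped between conditions, and the QARS1 values in low glucose were within a narrow range. None of the promoters of the 5 cytosolic enzymes that fell held the motif. Only 3.67% of all promoters hold it, so its absence does not set these 5 apart.

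**Figure D2:**
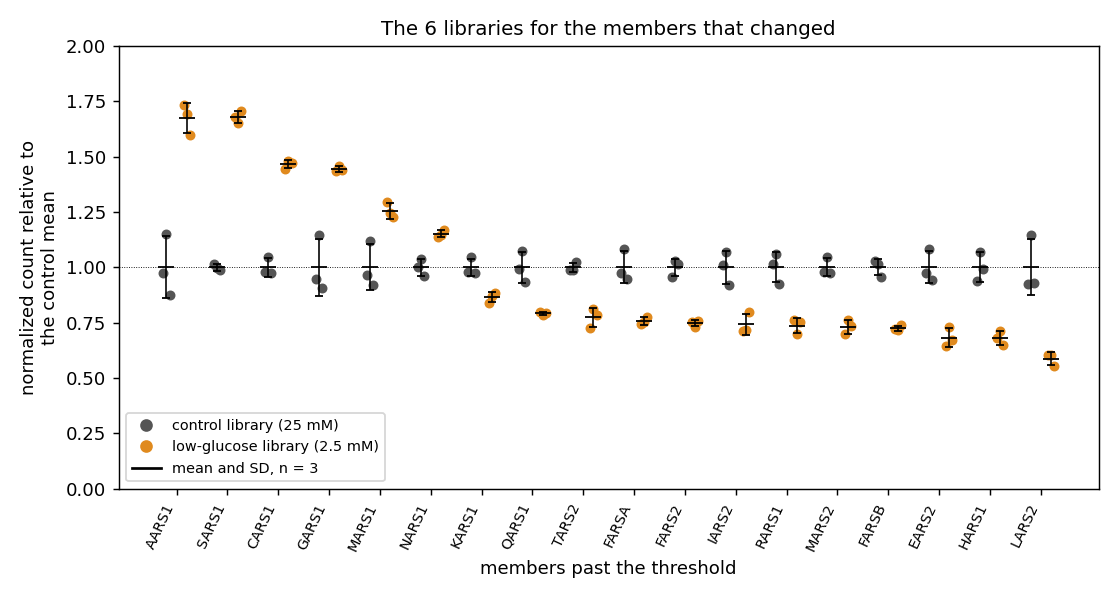
Normalised count of each library relative to the control mean (dimensionless) for the 18 members past the threshold, with control libraries in grey, low glucose libraries in orange, and the mean and SD (n = 3) as bars. The 6 members on the left lie above 1 in every low glucose library, from 1.68 times for AARS1 to 1.15 times for NARS1, and the 12 on the right lie below, down to 0.588 times for LARS2.

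The 8 cytosolic enzymes that did not pass included the most abundant member. WARS1, the tryptophan enzyme, which is also known as an interferon-induced gene, had 8409, 9810 and 8245 in control and 10114, 9610 and 9722 in low glucose. Only the control library of 10126218 reads reached into the low glucose range (log2 fold change 0.16, 95% interval -0.02 to 0.34, limma adjusted p = 0.181). Its level per length was 608 TPM in control and 659 TPM in low glucose.

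EPRS1, a fused enzyme for glutamate and proline in the complex, had 5387, 5692 and 4744 in control and 4959, 5029 and 5061 in low glucose, all inside the control range (log2 fold change -0.07, limma adjusted p = 0.574). IARS1, the isoleucine enzyme, had 4180, 4872 and 3999 in control and 4611, 4802 and 4779 in low glucose (log2 fold change 0.13, limma adjusted p = 0.282). LARS1, the leucine enzyme, which is also a leucine sensor for mTORC1, had 3624, 4084 and 3287 in control and 3445, 3372 and 3582 in low glucose (log2 fold change -0.08, limma adjusted p = 0.550). These enzymes of the complex overlapped between conditions, and in each the control library of 10126218 reads was the highest of all 6.

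TARS1, the threonine enzyme, had 3399, 3529 and 3063 in control and 3448, 3460 and 3561 in low glucose (log2 fold change 0.07, limma adjusted p = 0.535). TARS3, a less studied cytosolic threonine enzyme, was far lower, with 93.0, 88.1 and 90.9 in control and 82.7, 101 and 86.4 in low glucose (log2 fold change -0.02, limma adjusted p = 0.952). The conditions overlapped for both threonine enzymes. IARS1 and TARS1 carry the motif, so 2 of the 4 cytosolic enzymes that did not pass and had a promoter entry hold it.

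VARS1, the valine enzyme, had 2492, 3319 and 2343 in control and 2401, 2498 and 2535 in low glucose (log2 fold change -0.12, limma adjusted p = 0.453). YARS1, the tyrosine enzyme, had 3583, 3943 and 3545 in control and 3664, 3653 and 3723 in low glucose (log2 fold change 0.00, 95% interval -0.16 to 0.16, limma adjusted p = 0.985). In both, the highest value was again the control library of 10126218 reads and the conditions overlapped.

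GARS1 and KARS1, which make the glycine and lysine enzymes of both compartments, moved in opposite directions. GARS1 had 4973, 6020 and 4755 in control and 7530, 7654 and 7557 in low glucose, with no overlap, and its log2 fold change was 0.54 (SE 0.09, limma adjusted p = 0.000397). KARS1, which also belongs to the complex, had 3639, 3877 and 3615 in control and 3121, 3228 and 3278 in low glucose (log2 fold change -0.21, SE 0.07, limma adjusted p = 0.0388). The KARS1 libraries did not overlap either, but the call was lost in 6 of 12 other settings and in 4 of the 6 fits without 1 library. GARS1 shares 312 exon bases with the divergent transcript GARS1-DT, which had a log2 fold change of 0.46. Neither promoter held the motif, which only 3.67% of all promoters hold.

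Of the mitochondrial enzymes, LARS2, which charges mitochondrial leucine tRNA, fell most. It had 476, 591 and 480 in control and 313, 312 and 285 in low glucose. The 3 low glucose libraries lay well below the lowest control library. The mean went from 516 ± 65 to 303 ± 16 (SD, n = 3), 0.588 times the control (log2 fold change -0.76, SE 0.10, limma adjusted p = 7.89e-05). The cytosolic leucine enzyme LARS1 did not pass the test.

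EARS2, the mitochondrial glutamate enzyme, which also charges glutamine tRNA with glutamate as the first step towards glutaminyl-tRNA there, had 513, 571 and 498 in control and 341, 384 and 354 in low glucose (log2 fold change -0.55, SE 0.09, limma adjusted p = 0.000471). MARS2, the mitochondrial methionine enzyme, had 416, 445 and 414 in control and 297, 323 and 312 in low glucose (log2 fold change -0.45, SE 0.09, limma adjusted p = 0.0018). IARS2, the mitochondrial isoleucine enzyme, had 3341, 3524 and 3040 in control and 2356, 2372 and 2633 in low glucose (log2 fold change -0.43, SE 0.08, limma adjusted p = 0.00107). For all of these the low glucose libraries lay below every control library. IARS2 was the most abundant mitochondrial enzyme per length, with 170 TPM in control and 123 TPM in low glucose.

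FARS2 and TARS2, the mitochondrial phenylalanine and threonine enzymes, fell by 0.42 and 0.37 on the log2 scale (limma adjusted p = 0.00796 and 0.00339). FARS2 went from 240 ± 9 to 180 ± 4 and TARS2 from 705 ± 14 to 545 ± 32 (SD, n = 3), neither with overlap. The calls of all 6 mitochondrial enzymes held in every alternative fit and without any 1 library.

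Among the other 10 mitochondrial enzymes, 4 had a fitted change above 0. NARS2, the asparagine enzyme, had 280, 290 and 279 in control and 348, 321 and 324 in low glucose. Its libraries did not overlap, and the log2 fold change was 0.22 (limma adjusted p = 0.0869, edgeR adjusted p = 0.0444). WARS2, the tryptophan enzyme, had a log2 fold change of 0.26 without overlap (limma adjusted p = 0.120). VARS2, the valine enzyme, and SARS2, the serine enzyme, had too few reads for a firm statement: VARS2 had 10 to 20 reads per library (log2 fold change 0.36, 95% interval -0.36 to 1.08) and SARS2 34 to 54 (-0.13, interval -0.62 to 0.37). Both also share long stretches of exon with another gene on the same strand, 63.0% of the exon bases of VARS2 and 48.2% of those of SARS2. PARS2 (proline) had a log2 fold change of 0.07 and RARS2 (arginine) of -0.02, CARS2 (cysteine) -0.07, HARS2 (histidine) -0.12, and YARS2 (tyrosine) and AARS2 (alanine) -0.16 each. The limma adjusted p of these 6 ran from 0.164 to 0.893. YARS2 was the only mitochondrial enzyme with the motif.

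None of the scaffolds passed the test. AIMP1, which is also secreted as a cytokine precursor, had 765, 714 and 813 in control and 724, 635 and 749 in low glucose (log2 fold change -0.12, limma adjusted p = 0.337). AIMP2, the core scaffold, had 748, 701 and 731 in control and 767, 789 and 756 in low glucose (log2 fold change 0.09, limma adjusted p = 0.446). EEF1E1, also called AIMP3, had 158, 110 and 135 in control and 149, 122 and 134 in low glucose (log2 fold change 0.02, limma adjusted p = 0.954). Only AIMP2 did not overlap between conditions. AIMP2 shares 532 exon bases, 29.1% of its own, with EIF2AK1 on the other strand.

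The complex as a whole, counted as 7 enzymes and the 3 scaffolds, had 1 member that rose (MARS1), 3 that fell (RARS1, QARS1 and KARS1) and 6 that did not pass, with a median log2 fold change of -0.07. Of the 12 cytosolic enzymes outside it, 4 rose and 3 fell, with a median of 0.03. AARS1, SARS1, CARS1 and NARS1 were the risers outside the complex. Of the well expressed genes (mean value of 100 or more), 18.0% rose and 30.0% fell. Their median log2 fold change was -0.08. The counts and the median of the complex do not set it apart from these genes. The difference between members inside and outside was not tested.

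Per transcript length the cytosolic enzymes were the more abundant, with a median of 183 TPM in control against 23.0 TPM for the mitochondrial enzymes. TPM was computed from the recovered reads and the length of the Ensembl canonical transcript. The summed TPM of the 18 cytosolic enzymes was 3355, 3763 and 3059 in the control libraries and 3622, 3551 and 3652 in low glucose, so that the conditions overlapped (ratio of means 1.06). The summed TPM of the 16 mitochondrial enzymes was 606, 619 and 573 in control and 488, 485 and 506 in low glucose. The mitochondrial sums did not overlap, with a ratio of means of 0.822. IARS2, the most abundant of them, went from 170 to 123 TPM, and 10 of the 16 enzymes did not pass the test. With TPM the median log2 fold change of genes with a mean of at least 100 was -0.12. GARS1 and KARS1 together had 710, 820 and 662 in control and 824, 836 and 852 in low glucose, where the highest control library lay just below the lowest low glucose library. The scaffolds had 193, 176 and 181 in control and 185, 176 and 185 in low glucose.

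**Figure D3:**
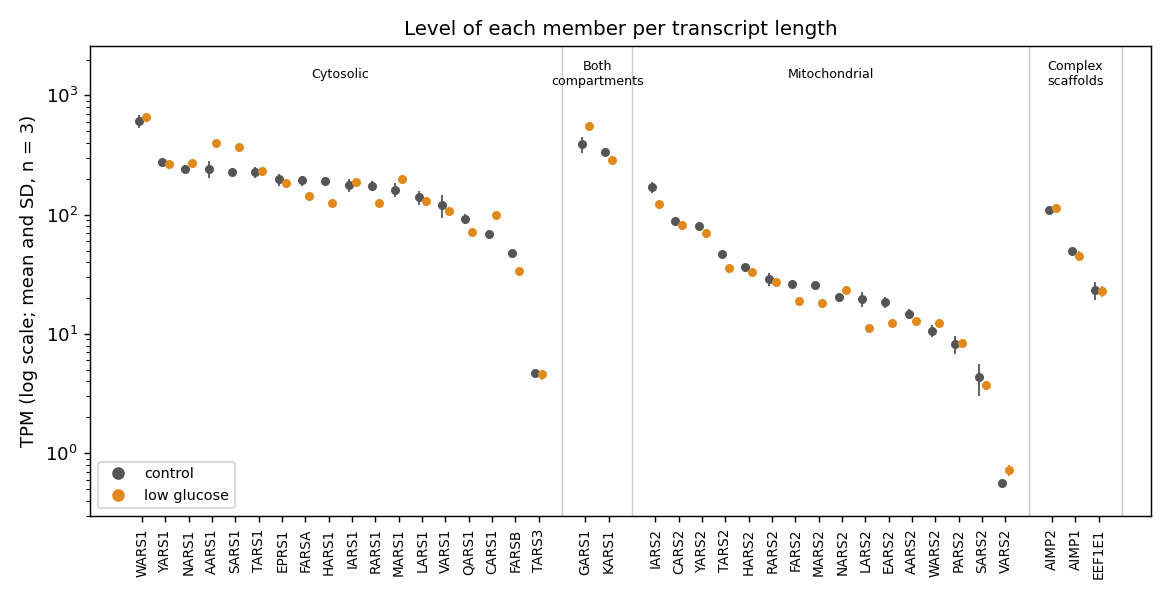
Level of each member per transcript length in TPM (log scale), ordered within each compartment by the control mean, with control in grey and low glucose in orange and bars for the SD (n = 3). WARS1 is the highest of all at 608 TPM in control and IARS2 the highest mitochondrial enzyme at 170 TPM, while VARS2 lies lowest at 0.560 TPM.

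To compare the compartments for the same amino acid, the log2 ratio of the cytosolic to the mitochondrial normalised count was taken within each library for 17 pairs. EPRS1 and FARS2 each stand in 2 pairs, so the pairs are not independent. With 3 libraries against 3, an exact permutation test (two-sided) cannot give a p below 0.1, and no pair can pass 0.05. In 8 pairs every low glucose ratio was above every control ratio, in 3 every one was below, and in 6 they overlapped. The share expected among pairs of other genes was not computed. The median change over the 17 pairs was 0.16.

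The alanine pair moved most. The log2 ratio of AARS1 to AARS2 was 3.63, 3.64 and 3.37 in the control libraries and 4.59, 4.44 and 4.35 in low glucose, a difference of 0.92 (exact permutation p = 0.1). Per length, AARS1 stood at 16.2 times AARS2 in control and 30.6 times in low glucose. For serine the log2 ratio was 5.96, 5.28 and 5.90 in control and 6.57, 6.54 and 6.66 in low glucose, a difference of 0.87, to which SARS1 contributed a log2 fold change of 0.75 and SARS2, with few reads, of -0.13. For methionine it was 2.53, 2.65 and 2.47 in control and 3.44, 3.26 and 3.29 in low glucose, a difference of 0.78. In the methionine pair both genes contributed, MARS1 upwards and MARS2 downwards.

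The leucine, cysteine, isoleucine, glutamate and threonine pairs followed, with differences in log2 ratio of 0.68, 0.63, 0.55, 0.48 and 0.44, each without overlap (exact permutation p = 0.1). In the leucine, isoleucine, glutamate and threonine pairs the mitochondrial enzyme passed the test and the cytosolic enzyme did not, while in the cysteine pair it was the cytosolic enzyme. For cysteine the order of the levels per length also turned: CARS1 was 0.782 times CARS2 in control and 1.21 times in low glucose. It was the only pair of the 17 in which the cytosolic gene was not the higher per length in control. By normalised count the order did not turn, as CARS1 was above CARS2 in every control library (log2 ratios 0.23, 0.35 and 0.08).

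Other pairs kept their ratio close to that of the control. FARSA to FARS2 had log2 ratios of 3.03, 3.07 and 2.90 in control and 2.98, 3.04 and 3.03 in low glucose, a difference of 0.02, where both genes fell. NARS1 to NARS2 had 3.72, 3.72 and 3.67 in control and 3.60, 3.72 and 3.73 in low glucose, a difference of -0.02, where both fitted changes were above 0. The exact permutation p was 0.8 in either pair, which with 3 libraries a side does not show that the ratios are alike. The ratios of the tyrosine pair, of FARSB to FARS2, of the tryptophan pair and of EPRS1 to PARS2 also overlapped, with differences between 0.16 and -0.14.

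In the arginine, histidine and valine pairs the ratio was lower in every low glucose library, by -0.42, -0.43 and -0.48 (exact permutation p = 0.1 each). For arginine and histidine the cytosolic enzyme was the gene that passed the test. The valine difference rests on the 10 to 20 reads of VARS2 and was 0.01 after quantile normalisation.

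**Figure D4:**
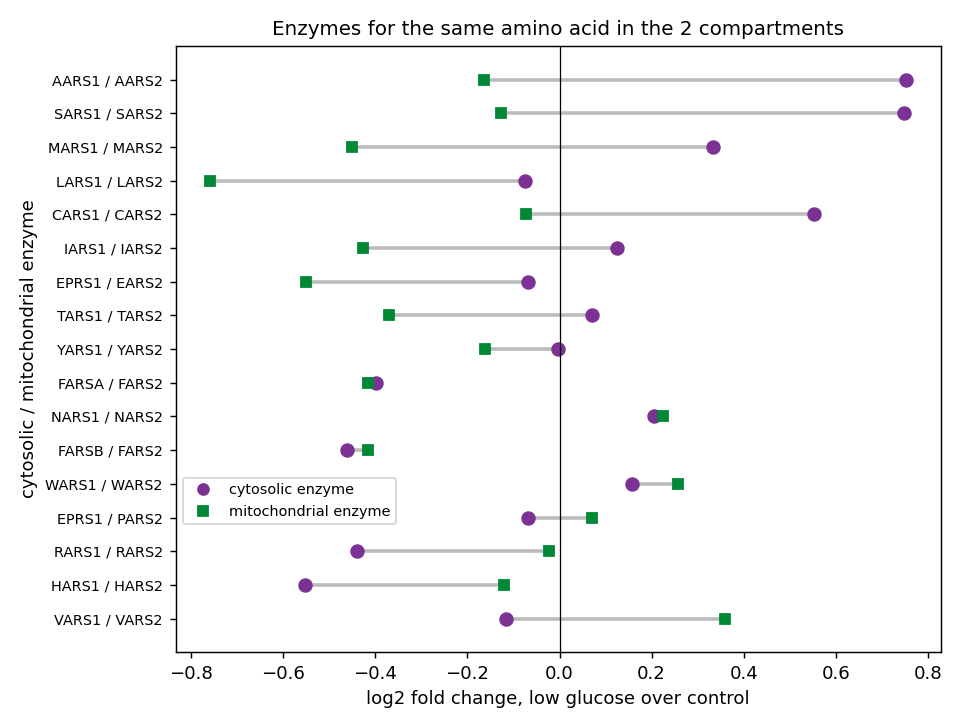
Fitted log2 fold change of low glucose over control for the cytosolic (circle) and the mitochondrial (square) enzyme of 17 pairs, ordered by the change in their log2 ratio, with a line joining the members of a pair. At the top the alanine pair is split by 0.92, in the middle the phenylalanine and asparagine pairs nearly coincide, and at the bottom the order of the symbols is turned round.

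Genes that work next to the synthetases or respond to ATF4 were counted from lists of known function. The lists were chosen with earlier results of these data known, so their counts are no independent test. For comparison, 14.7% of all genes tested rose and 16.2% fell, and 18.0% and 30.0% of those with a mean of at least 100. Of 20 ATF4 response genes outside the family, 17 rose and none fell, with a median log2 fold change of 1.06. ATF4 itself was at 1.04, ASNS, which makes asparagine, at 1.09, TRIB3, a pseudokinase that ATF4 induces, at 1.52, SESN2, an inhibitor of mTORC1, at 1.55 and CHAC1, which degrades glutathione, at 2.14. ATF5, SLC7A5 and SLC7A1 did not pass. The largest rise among the synthetases, 0.75 for AARS1, was thus smaller than the median of this list.

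Of the 3 genes that sense uncharged tRNA, IMPACT, a GCN2 inhibitor, rose by 0.60 on the log2 scale, the GCN2 partner GCN1 fell by 0.52 and EIF2AK4 fell by 0.21 (limma adjusted p = 0.000126, 0.00137 and 0.0493). Among 14 genes of tRNA export, editing and maturation, 1 rose and 4 fell, with a median log2 fold change of 0.05. Of genes with a mean of at least 100, 18.0% rose and 30.0% fell, so these counts do not set the list apart. SEPHS2, which makes the selenium donor for selenocysteine, rose by 0.49, and ELAC2, which trims the 3′ end of tRNA precursors, fell by 0.66. The exportin XPOT did not pass, with a log2 fold change of 0.15.

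Among 15 genes of mitochondrial tRNA charging and translation, 1 rose and 3 fell, with a median log2 fold change of 0.01. These counts do not set the list apart either, beside the 18.0% and 30.0% of genes with a mean of at least 100. TACO1, a translational activator of COX1, fell by 0.42, the mitochondrial elongation factors GFM1 and TUFM fell by 0.38 and 0.24, and MTRFR, a ribosome rescue factor, rose by 0.31. Of the cytosolic factors that carry charged tRNA to the ribosome, 4 of 5 could be tested. EEF1B2, an exchange factor, rose by 0.35 and EEF1A2 fell by 0.41, while EEF1G was listed at 0 in every library.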

How the data were processed

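RNA-seq of MiaPaCa-2 cells in low glucose and control medium (3 libraries each) was analysed from 1 table of 60668 genes. According to the submitters' processing notes and the methods, the authors processed reads with CASAVA, FastQC and Trim Galore, mapped them to hg38 with STAR 2.7.0e and used DESeq2. RSEM stands in the study's software list, with no step named for it. The strand setting of the counting and the annotation are not given in the sources used here. The authors deposited a normalised signal, made from gene counts by dividing each library by its size factor. Whole reads were recovered from them: 100% of the values came out whole within 0.01 reads, and the steps matched size factors recomputed over 17906 genes. Of the identifiers, 99.4% matched GENCODE v44, and the 45 entries for copies on the pseudoautosomal region of chromosome Y were left as separate genes.

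Genes with a mean value of at least 1 (21101) were tested on log2(value + 1), a scale that understates the change of low genes, with limma 3.58.1 in R 4.3.3 (eBayes with a trend, two-sided, Benjamini-Hochberg adjustment over all genes tested, threshold 0.05). The procedure was tested on simulated data. The recovered reads were also fitted with edgeR 4.0.16, which called 6554 of 15322 genes (42.8%), and DESeq2 1.42.0, which called 5486 of 17421 (31.5%), against 6528 for limma. Ratios were compared with exact permutation tests. TPM used the recovered reads and the length of the Ensembl canonical transcript. Promoters came from RefSeq (GRCh38.p14).

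The members, lists and the rule for named genes were chosen with earlier results of these data known. By that rule, values in every library are given for the 8 cytosolic enzymes with the largest change, the cytosolic enzymes without a call, 4 mitochondrial enzymes with the largest change, GARS1, KARS1, the scaffolds, and the pairs that moved most and least. MARS1, NARS1 and NARS2 were added with their values seen. The alternatives were scaling (library size, TMM, quantile, TPM), filters, pseudocount 0.1, variance model, threshold 0.01, thinning to 9741183 reads and leaving out each library. The 3 libraries per condition limit the precision, and so do the few reads of VARS2 (10 to 20 per library) and SARS2 (34 to 54).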

Additional observations from a re-analysis of the deposited data

How the results depend on the processing

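No paired analysis was possible because replicate numbers could be tied to only 2 of the 6 libraries. The 10 changed cytosolic enzymes (5 higher, 5 lower) became 8 higher and 3 lower after quantile normalisation, 6 higher and 5 lower at equal library size, 3 higher without the variance trend and 3 higher with TPM. The 6 changed mitochondrial enzymes, all lower, were joined by 2 higher at equal library size and 1 higher in edgeR. Of GARS1, KARS1 and the scaffolds, 2 changed as reported, but 1 in all and 0 lower, KARS1 being lost, with equal library size, TMM, quantile normalisation, no filter, no variance trend, edgeR and the 0.01 threshold. The cytosolic median log2 fold change was 0.071 at equal library size and 0.15 after quantile normalisation, the mitochondrial one -0.064 and -0.10, and -0.18 with TPM. No scaling moved the median of genes with a mean of at least 100 by over 0.1 (-0.08 as reported, 0.00 at equal library size, -0.12 with TPM). Over all genes, 6528 changed as reported (3111 higher, 3417 lower), 4090 without the variance trend (1991 lower), 4072 at the 0.01 threshold (1800 higher, 2272 lower) and 3935 higher against 2647 lower at equal library size. Leaving out each library in turn gave 4319 to 7251 changed genes (1931 to 3534 higher, 2388 to 3741 lower), 8 to 12 cytosolic enzymes (3 to 7 higher, 5 lower in each), 6 to 8 mitochondrial enzymes (0 to 1 higher, 6 to 7 lower), 1 to 2 of GARS1, KARS1 and the scaffolds (0 to 1 lower), a cytosolic median of -0.03 to 0.04, a mitochondrial median of -0.19 to -0.13 and 11 to 13 pairs without overlap. Leaving out a library can only keep or raise the number of pairs without overlap, so that count is no check on the pairs. The fewest cytosolic risers were found without low glucose replicate 1 and the most without the control library of 10126218 reads. The lowest mitochondrial median was found without the control library of 9741183 reads. Of the 18 members that passed, 13 did so in all 12 other settings and 15 without any 1 library. FARSA was lost after quantile normalisation, QARS1 there and without the variance trend, MARS1 without the trend and with TPM, and NARS1 in these and without the filter. IARS1, WARS1, WARS2 and YARS2 passed once the control library of 10126218 reads was left out. No member changed sign while past the threshold. The cause of these differences was not tested.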

Other observations

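The synthetases fall into 2 structural classes that are unrelated in their catalytic domain. Of the 18 class I enzymes measured here, 2 rose (CARS1 and MARS1), 6 fell and 10 did not pass, with a median log2 fold change of -0.07. Of the 17 class II enzymes, 4 rose (AARS1, SARS1, NARS1 and GARS1), 6 fell and 7 did not pass, with a median of -0.12. EPRS1 holds a domain of each class and is in neither count. Among the mitochondrial enzymes, 4 of 9 of class I and 2 of 7 of class II fell. Among all genes tested, 14.7% rose and 16.2% fell, and among those with a mean of at least 100 the shares were 18.0% and 30.0%. Whether the classes differ was not tested.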
